A study of Drosophila melanogaster with 48 samples.

Results

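The respiratory chain of the fly is built from subunits encoded in the nucleus and subunits encoded in mitochondrial DNA, and the genes described here are the nuclear ones. They were taken from the counts table of the series by their symbols: every gene that begins with ND-, UQCR-, ATPsyn or COX4 to COX8, together with SdhA, SdhB, SdhC, SdhD, RFeSP, Cyt-c1 and blw, which gave 81 of the 16995 genes in the table. The rule uses symbols and no measured value, though the genes were chosen with earlier results of these data known. Complex I (the ND- genes) holds 40 of them, complex II (the Sdh genes) 4, complex III (UQCR-, RFeSP and Cyt-c1) 10, complex IV (COX) 11 and complex V (ATPsyn and blw) 16.

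Each library was made from the RNA of 1 adult Drosophila brain by 3′-mRNA-Seq, in which a read starts near the 3′ end of a messenger RNA, so a gene's count follows its number of molecules and not its length. The study asked how near-infrared light (NIR) that inhibits complex IV alters gene expression after traumatic brain injury. The 16 groups of 3 libraries are female and male flies of the strains labelled Tau-KO and w1118, each with brains taken 1, 2 or 4 hr after injury and with uninjured controls. All 48 brains, those of the controls included, were exposed to NIR for 2 hr after dissection, so no comparison here measures the light itself, and the hours give the time of dissection, before the exposure. The study's methods give mated flies of 10 to 14 days for all assays, and describe a single strike in a high-impact trauma device for w1118, with no such statement for Tau-KO. The strain w1118 carries a mutation of the white gene and lacks eye pigment. A bulk count cannot tell fewer cells of a type from less of an RNA in each cell.

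Complex I takes electrons from NADH and complex II takes them from succinate. Both pass them through ubiquinone to complex III, which hands them to cytochrome c, and complex IV (cytochrome c oxidase, COX) passes them to oxygen. Complexes I, III and IV pump protons out of the mitochondrial matrix, and complex V (ATP synthase) makes ATP as the protons return. Neurons and photoreceptors depend heavily on this supply, and several Drosophila subunits have a duplicated gene, named with a final L, that is known for use in the testis.

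The libraries held 39517 (a Tau-KO male control) to 1668925 (a w1118 male at 1 hr) gene counts, with a median of 582952. Levels are given as CPM, counts scaled to a common total of reads, with library sizes adjusted by edgeR's TMM method. In 16 libraries the counts differed from those of the nearest other library by a chi-square per degree of freedom over 4, and these libraries are said to stand apart. They lie in 14 of the 16 groups, and the Tau-KO male control group has 2 of them beside the library of 39517 counts. Markers of neurons summed to 2532 to 4430 CPM and those of glia to 1479 to 3101 CPM in every library, while the testis markers summed to 0 to 17.6 CPM. Muscle markers summed to 422 to 5627 CPM, photoreceptor markers to 2966 to 37897, fat body markers to 2589 to 21292 and gut markers to 12.4 to 7387 CPM. The highest gut sum was in w1118 female control replicate 1, and the highest photoreceptor and fat body sums and the lowest muscle sum were in w1118 female 2 hr replicate 2. Counts of tau itself were not lower in the libraries labelled Tau-KO: the 24 of them held 91.0 to 254.5 CPM (median 141.5), against 61.1 to 199 CPM (median 151) in the 24 w1118 libraries. Where the deletion lies relative to the 3′ tag is not given in the sources used here, so this count does not check the label, and Tau-KO below means the libraries labelled so.

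Together the 81 genes took 3.93 to 6.36% of the gene counts of a library, with a median of 6.01%. The bounds of the 95% exact binomial interval of each library's share had medians of 5.94 and 6.09%, and these intervals cover counting error only. On the scaled library sizes the summed level was 43100 to 64527 CPM, with a median of 59433 CPM. The lowest sum was that of the shallowest library. Of the 81 genes, 62 passed edgeR's filter on low counts, in both strains, and these are the tested genes below. Another 15 had no count in any library and 4 had a few counts.

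The subunit genes were among the abundant messages of these brains. The tested ones had a median level of 537 CPM, against 36.3 CPM over all 5821 genes tested in the 48 libraries, and 48 of the 62 ranked among the 500 most abundant genes. The most abundant was ATPsynC, the subunit of the rotating membrane ring of complex V, at 4945 ± 621 CPM (SD, n = 48). COX6B, COX4 and COX5A, nuclear subunits of cytochrome c oxidase, followed at 4559 ± 1004, 4245 ± 617 and 4221 ± 1177 CPM, and COX7C was next at 2933 ± 319 CPM. These SDs are spreads between libraries and do not decide the order of ATPsynC, COX6B, COX4 and COX5A. That order was not tested within libraries. These 5 genes held 34.2% of the counts of all 81, and 17 genes averaged over 1000 CPM. At the other end were SdhA, the flavoprotein that oxidises succinate, at 47.3 ± 37.7 CPM, ND-18 at 56.1 ± 43.4 CPM and SdhB, the iron-sulphur subunit of complex II, at 64.4 ± 52.9 CPM. The mean level of ATPsynC was 105 times that of SdhA.

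The complexes differed in how their messages were spread. Of the raw counts of the 81 genes, pooled over the 48 libraries, complex IV held 30.6% with 7 tested genes and complex I held 30.4% with 32, and their summed levels averaged 18596 and 17259 CPM. A median tested complex IV gene stood at 2933 CPM and a median complex I gene at 425 CPM. Complex V held 24% with 12 tested genes (median 943 CPM), complex III 13.7% with 7 (median 1198 CPM) and complex II 1.22% with 4 (median 144 CPM). Within complex I the highest was ND-AGGG, a small membrane subunit, at 2411 ± 888 CPM and the lowest tested one ND-18, an accessory subunit of the matrix arm. The 7 core subunits of the matrix arm (ND-75, ND-51, ND-49, ND-30, ND-24, ND-23 and ND-20) had a median level of 429 CPM, against 421 CPM for the other 25. Within complex III UQCR-6.4, a small subunit, was highest at 1983 ± 642 CPM, and UQCR-C1, one of the core proteins, was lowest at 573 ± 121 CPM. In complex IV COX5B was lowest at 544 ± 161 CPM. In complex II the membrane anchors SdhC (316 ± 66.8 CPM) and SdhD (224 ± 87.2 CPM) stood above the catalytic subunits SdhA and SdhB.

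Subunits that sit in the same complex in fixed proportion did not have like levels. In the catalytic head of ATP synthase, where alpha and beta subunits alternate in equal number, blw (alpha) averaged 1046 CPM and ATPsynbeta 252 CPM, a ratio of 4.15. The lowest level of blw was 503 CPM and the highest of ATPsynbeta was 615 CPM, in different libraries, and blw was above ATPsynbeta in each of the 48. The longest spliced transcripts of the tested genes ran over 477 to 3817 bases (median 868), and Spearman's rho between length and mean level was -0.252 across the 62 genes, which are not independent.

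**Figure D1:**
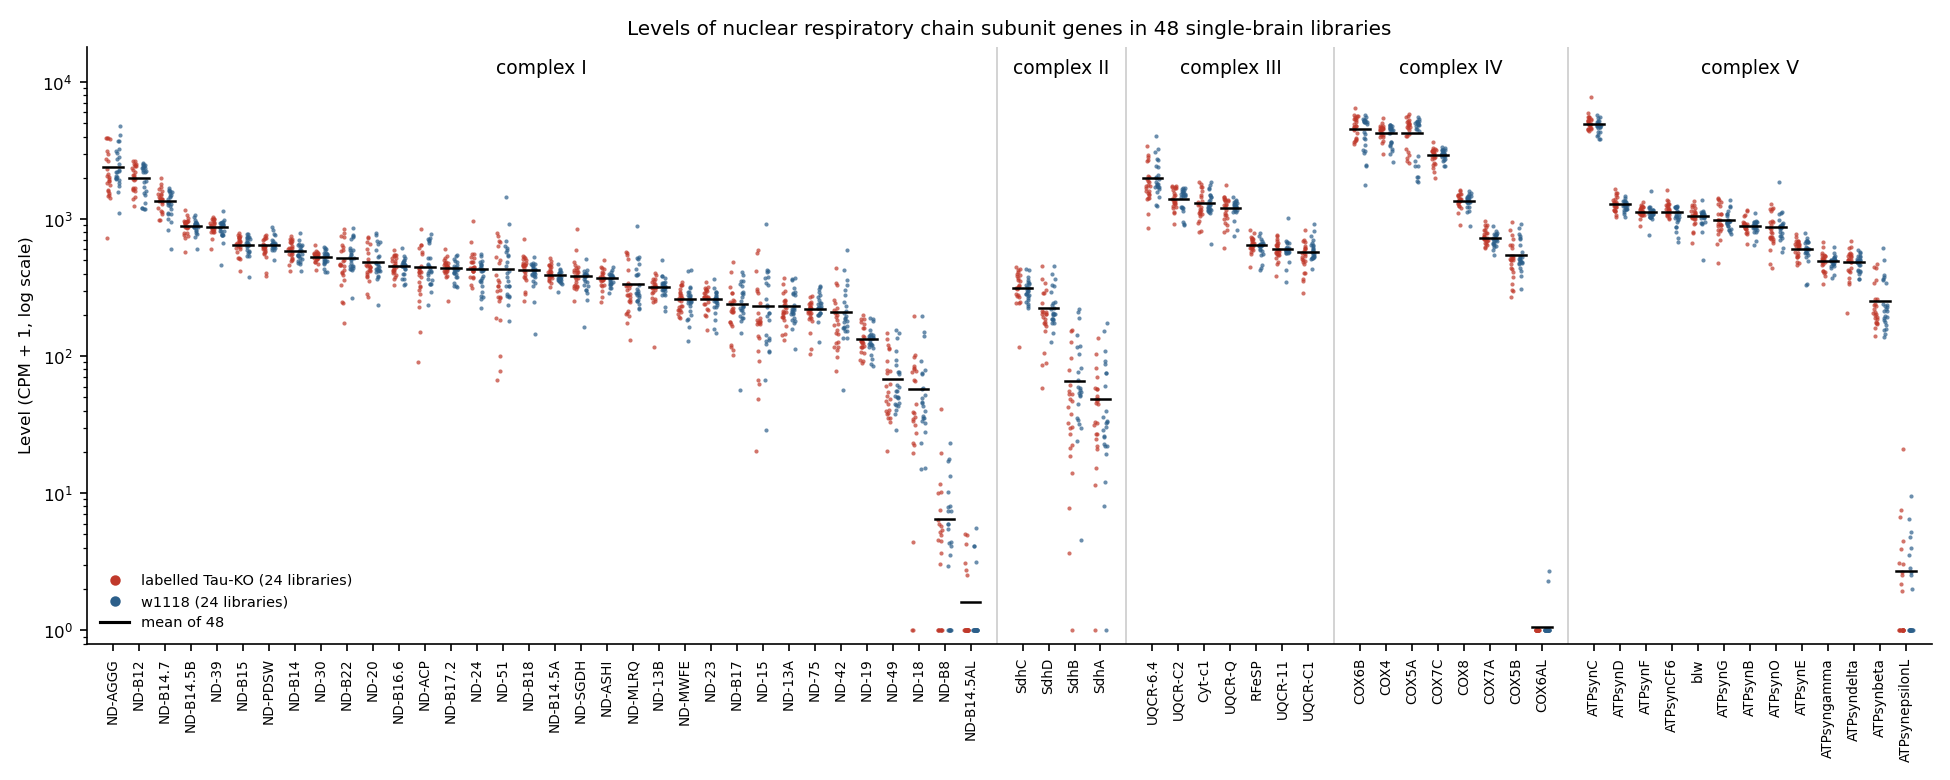
Level of each gene with a count, as CPM + 1 on a log axis, in the 24 libraries labelled Tau-KO (left of each pair) and the 24 w1118 libraries, with the mean of all 48 as a line; genes are ordered within complexes I to V. ATPsynC, COX6B, COX4 and COX5A lie at the top, the complex II genes SdhA and SdhB among the lowest tested ones, and the clouds of the strains cover each other.

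The duplicated genes were near silent. Of 16 symbols that end in L, L1 or L2, 13 had no count in any of the 48 libraries: ND-51L1, ND-51L2, ND-20L, ND-49L, ND-24L, UQCR-11L, UQCR-14L, COX4L, COX5BL, COX7AL, ATPsynGL, ATPsynCF6L and ATPsynbetaL. A count of 0 over all libraries allows a level of up to 0.0975 CPM (3 counts of 30783888). The remaining ones, ATPsynepsilonL, ND-B14.5AL and COX6AL, had 48, 16 and 3 counts, so the 16 together held 67 counts. ATPsynepsilonL was found in 21 libraries and averaged 1.70 CPM. COX5BL is the exception in reading, since in the current annotation (BDGP6) its 3′ end lies wholly opposite Trmt6 and reads there may have been dropped. None of the 16 reached the level needed for a test, while every complex had tested genes among its other symbols.

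Genes without the L ending were all found but for ND-MNLL and UQCR-14, each at 0 counts. In BDGP6 the last 300 bases of ND-MNLL lie wholly within CG45089 on the same strand, and those of UQCR-14 lie wholly opposite CG32576. HTSeq drops a read that falls on more than 1 gene, and 5.49 to 11.3% of the reads of a library were dropped so. These 2 zeros are therefore not read as silence. ND-B8 was low, with 167 counts in 33 libraries and a mean of 5.53 CPM. Parts of the 3′ ends of ND-B22 (46.9%, CG31855), SdhB (43.0%, CG15237), UQCR-6.4 (42.3%, POSH), SdhD (41.3%, PTPMT1) and ND-51 (32.3%, CG34180) lie opposite another gene. That of ND-MWFE lies partly within Nrk (21.3%) and partly opposite TppII (27.8%). Smaller parts lie opposite another gene in further genes, such as ND-B16.6 (26.2%), RFeSP (26.1%), ND-B8 (23.7%), ND-18 (15.3%) and SdhA (12.7%). Counts of all these genes may miss reads, and whether HTSeq was run with strand is not given in the sources used here.

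From library to library the tested genes had a median coefficient of variation of 20.5% over the 48 libraries, against 51.4% for all genes tested. The median level of the subunit genes was also higher, at 537 CPM against 36.3 CPM, so counting error weighs less on them. Genes of like level were not compared, so these medians do not show that the subunit genes were steadier than other genes as abundant. ND-30, a core subunit of complex I, varied least (9.81%), and its lowest, median and highest libraries stood at 408, 541 and 645 CPM. SdhB varied most (82.3%), with 0, 51.5 and 219 CPM as its lowest, median and highest levels. In all, 22 genes had a coefficient under 15% and 6 over 50%: SdhA, SdhB, ND-15, ND-18, ND-49 and ND-51. By complex the median coefficient was 22.2% in I, 59.3% in II, 18.0% in III, 14.5% in IV and 14.9% in V. A coefficient of variation holds counting error too, which weighs most on the low genes SdhA, SdhB, ND-18 and ND-49.

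Part of that variation went with the libraries that stand apart. COX5A was under 3500 CPM in 14 of those 16 libraries and in none of the other 32, where it ran over 4035 to 5832 CPM (median 4921). The 16 had a median of 2640 CPM of COX5A, and the exceptions among them were Tau-KO female control replicate 2 at 5531 CPM and Tau-KO male 4 hr replicate 2 at 4456 CPM. ND-AGGG went the other way, with a median of 3465 CPM in the 16 and 1966 CPM in the 32, and so did SdhB, with 116 and 39.2 CPM. Summed over complex IV the medians were 15997 and 20179 CPM, while complex I (18668 and 16968 CPM), complex II (856 and 544 CPM) and complex III (9036 and 7568 CPM) were higher in the 16. Their gene counts were higher as well, with medians of 872700 and 488380, and their photoreceptor markers had medians of 5997 and 9006 CPM. These 16 libraries were picked by their counts over all genes, the subunit genes among them, so no test is given, and the part of tissue makeup in these differences was not tested.

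**Figure D2:**
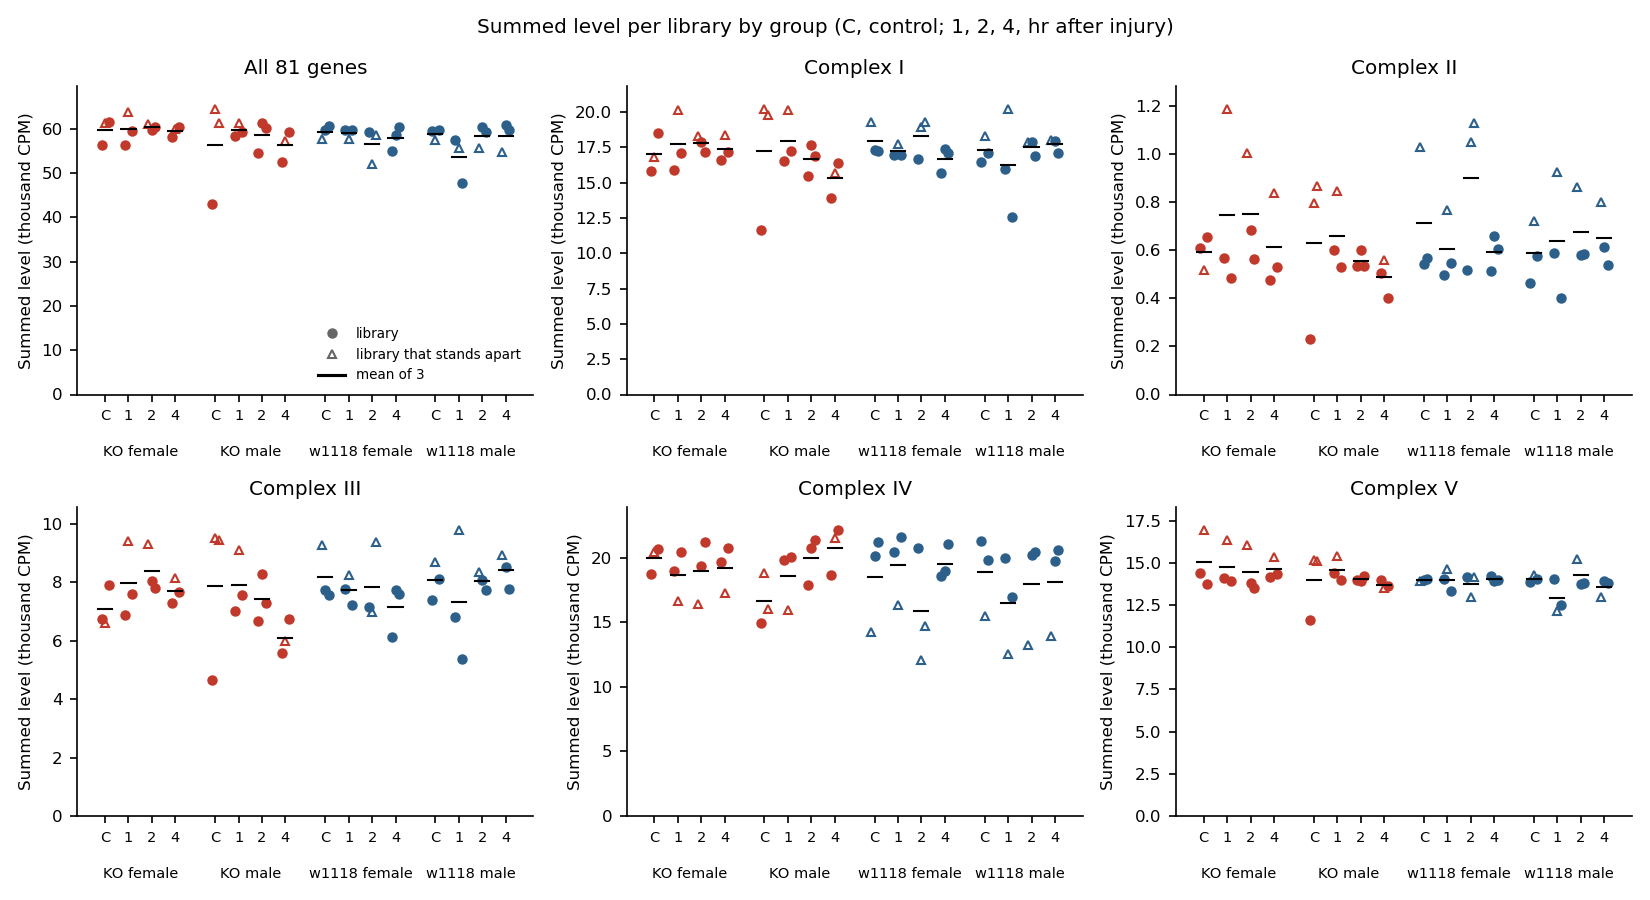
Summed level, in units of 1000 CPM, of all 81 genes and of each complex, for each library by group (KO, labelled Tau-KO; C, uninjured; numbers, the hr at dissection), with the mean of each group as a line and open triangles for the libraries that stand apart. Sums of all 81 genes stay within 43100 to 64527 CPM, and the triangles have a lower median in complex IV (15997 against 20179 CPM) and a higher one in complex II (856 against 544 CPM), though Tau-KO female control replicate 2 lies the other way in both and Tau-KO male 4 hr replicate 2 in complex IV.

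Levels also moved with the depth of the library. Over the 48 libraries, Spearman's rho between CPM and gene counts was over 0.5 for 27 of the 62 genes (43.5%) and under -0.5 for 5, against 17.9% and 12.4% of all 5821 genes. With permutation p-values (100000 permutations, two-sided) adjusted over the 5821 genes, 36 of the 62 were higher in deeper libraries and 10 were lower, beside 32.5% and 22.2% of all genes. ATPsynO, which links the stalk of ATP synthase to its head, had a rho of 0.89 and a Pearson r of 0.73 on log2 values, both with the smallest p that the permutations can give (1e-05; adjusted 5.92e-05 for rho and 7.63e-05 for r), and r was 0.76 without the 2 libraries of most extreme depth. Its median was 1134 CPM in the 10 deepest libraries, against 642 CPM in the 10 shallowest. ND-AGGG (rho 0.88, r 0.87, r 0.83 without those 2 libraries, same p-values) had medians of 3858 and 1526 CPM. In the other direction, ATPsynC had a rho of -0.69 and an r of -0.50 (permutation p 1e-05 and 0.00073; adjusted 5.92e-05 and 0.00249), r was -0.67 without the 2, and its medians were 4482 and 5522 CPM. ND-30 showed little of this, with a rho of -0.11 and an r of 0.16 (permutation p 0.441 and 0.285; adjusted 0.523 and 0.356), and r was -0.23 without the 2 libraries, though with library totals alone its rho was -0.59.

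The relation held in part within the subsets. In the 24 w1118 libraries 19 genes (30.6%) had a rho over 0.5 and 4 (6.45%) one under -0.5. Of all genes, 13.6% and 11% did. In the 24 Tau-KO libraries the counts were 35 (56.5%) and 6 (9.68%), beside 23.5% and 14.6% of all genes. In the 32 libraries that do not stand apart they were 28 (45.2%) and 4 (6.45%), beside 14.3% and 8.21%. In the 16 that do they were 7 (11.3%) and 4 (6.45%), beside 13.7% and 8.62%, so not above the shares of all genes. The median rho there was 0.075, against 0.082 over all genes. ATPsynO had a rho of 0.88 in the 32 and 0.56 in the 16, ND-AGGG 0.89 and 0.66, and ATPsynC -0.75 and -0.48. The scaling mattered for the balance of directions. With DESeq2's size factors 30 (48.4%) and 6 (9.68%) genes lay past these limits, beside 19.4% and 11.9% of all genes. With library totals alone 19 (30.6%) and 13 (21%) did, beside 10.9% and 19.6%. The median rho of the 62 was then -0.02 in place of 0.45. By complex the median rho was 0.75 in III, 0.65 in II, 0.45 in V, 0.40 in I and -0.27 in IV. Depth was not balanced over the groups.

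**Figure D3:**
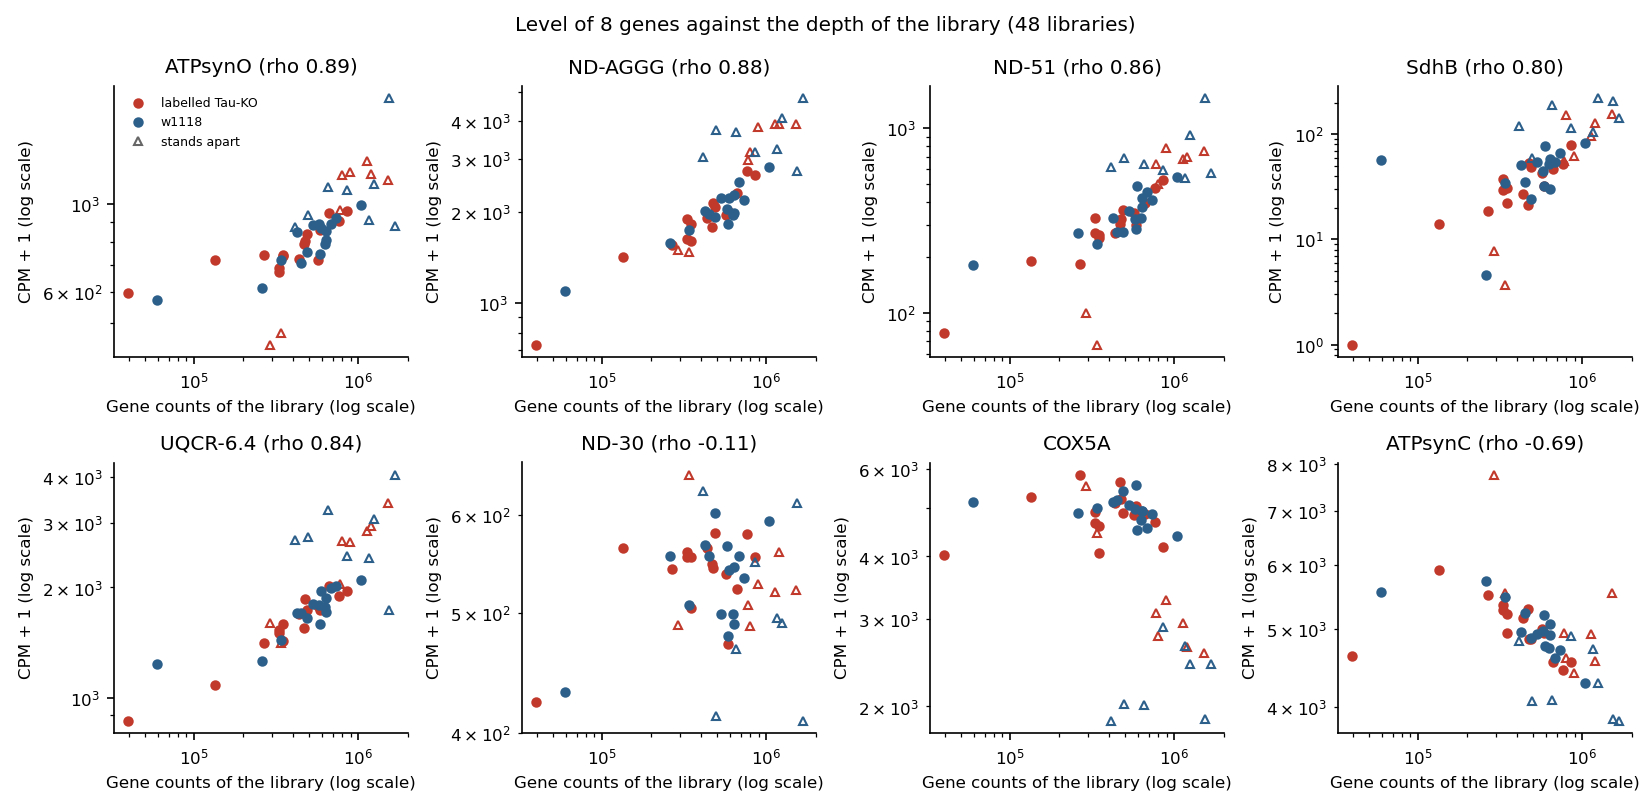
Level (CPM + 1) of 8 genes in the 48 libraries against the gene counts of the library, both on log axes, in libraries labelled Tau-KO and w1118 libraries, with open triangles for those that stand apart. ATPsynO, ND-AGGG and ND-51 climb with depth, ND-30 is level, and COX5A splits into 14 of the 16 triangles under 3500 CPM and the 32 other libraries at 4035 CPM or more.

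Injury was compared with the control of the same strain and sex at each time. The test was edgeR's quasi-likelihood test on the deposited counts, with p-values adjusted by Benjamini-Hochberg over all genes tested in the strain (5015 in Tau-KO, 5477 in w1118). No subunit gene passed an adjusted p of 0.05 at any time in either strain or sex, and among all genes 0% did in each of these 12 comparisons. Averaged over 1, 2 and 4 hr, again no subunit gene passed, beside 0% of all genes in Tau-KO females, 0.0598% in Tau-KO males, 0.0183% in w1118 females and 0% in w1118 males. DESeq2 also called none, except for 6 in Tau-KO males at 4 hr. By edgeR 24 of the 62 genes (38.7%) had an unadjusted p under 0.05 in Tau-KO males at 4 hr, beside 23.3% of all genes. At each of the other 11 time points at most 2 did, beside 0.749 to 7.08% of all genes. A p that misses a threshold does not show that a gene stayed level: the median SE of a log2 fold change was 0.25 to 0.26 at each of these time points.

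In w1118 the fold changes were small. In females the median log2 fold change of the 62 genes was -0.09, 0.01 and -0.11 at 1, 2 and 4 hr, and in males -0.12, 0.04 and 0.04, while the medians over all genes lay within 0.03 of 0. Of the 62, 59, 57 and 58 lay within 0.5 of 0 in females and 59, 60 and 61 in males. The edgeR count of genes with an unadjusted p under 0.05 was 0, 1 and 0 in females, beside 0.913%, 7.08% and 1.28% of all genes, and 1, 0 and 0 in males, beside 2.57%, 1.1% and 0.749%. DESeq2 counted 0, 2 and 0 in females and 1, 0 and 0 in males. For the mean over the times neither tool counted any, beside 2.45% of all genes in females and 0.968% in males by edgeR. Leaving out 1 library at a time gave 0 to 8 genes in the time points of w1118 females, the most at 2 hr without 2 hr replicate 1 (22.7% of all genes) and none at 2 hr without control replicate 3, and 0 to 6 in those of w1118 males, the most at 1 hr without 1 hr replicate 2 (3.23%) and none at 1 hr without control replicates 1 or 3.

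The w1118 genes behind those counts were ND-18 and ND-B15, both subunits of complex I. ND-18 at 2 hr in females stood at 38.5, 78.8 and 195 CPM in injured brains, against 31.6, 56.2 and 26.8 CPM in controls (log2 fold change 1.46 ± 0.64 SE, unadjusted p = 0.0333, adjusted p = 0.680, edgeR). The groups overlap, and the library at 195 CPM is 1 of 2 in that group that stand apart. ND-B15 at 1 hr in males stood at 537, 571 and 375 CPM in injured brains, against 669, 620 and 734 CPM in controls (-0.42 ± 0.19, unadjusted p = 0.0425, adjusted p = 1.00, edgeR). All of its injured libraries lay below all controls; the lowest of them was the library of 59781 gene counts.

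SdhA and SdhB, the catalytic subunits of complex II, moved widely between brains of 1 group. In w1118 females SdhA stood at 173, 21.8 and 25.2 CPM in controls, 32.0, 74.0 and 21.2 at 1 hr, 27.8, 91.2 and 151 at 2 hr and 7.11, 38.9 and 18.2 at 4 hr. SdhB in the same brains stood at 188, 57.7 and 43.6 CPM in controls, 29.0, 115 and 23.1 at 1 hr, 34.2, 207 and 219 at 2 hr and 3.56, 76.2 and 50.2 at 4 hr. The same libraries were high or low for both genes: control replicate 1, 1 hr replicate 2 and 2 hr replicates 2 and 3, which all stand apart. Control replicate 1 had 7387 CPM of gut markers (median of all libraries 366), and 2 hr replicate 2 had 37897 CPM of photoreceptor and 422 CPM of muscle markers (medians 8722 and 4424); their part in the SdhA and SdhB levels was not tested. Against the controls SdhA had a log2 fold change of -1.68 ± 0.93 at 4 hr (adjusted p = 0.999, edgeR), the furthest from 0 of any subunit gene in w1118 females, and SdhB one of -1.08 ± 0.80 (adjusted p = 0.999). In w1118 males SdhA stood at 21.3, 59.9 and 31.7 CPM in controls, 11.1, 108 and 0 at 1 hr, 85.9, 29.6 and 24.8 at 2 hr and 74.2, 32.8 and 35.3 at 4 hr, and its log2 fold changes of 0.42, 0.27 and 0.30 had SEs of 0.88 each. The anchors SdhC and SdhD moved less: in w1118 their log2 fold changes over the 6 time points ran over -0.03 to 0.45 for SdhC and -0.32 to 0.44 for SdhD.

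In Tau-KO females the median log2 fold change of the 62 genes was 0.07, 0.14 and 0.08 at 1, 2 and 4 hr, and 49, 50 and 57 of them lay within 0.5 of 0. By edgeR 1 gene was higher and 1 lower at an unadjusted p of 0.05 at 1 hr (5.7% of all genes), 1 higher and 1 lower at 2 hr (5.98%) and none at 4 hr (3.27%), and for the mean over the times 1 was higher and 2 lower (8.85%). DESeq2 counted 1, 2 and 0 at these times and 3 for the mean. Without the control replicate 2 of this group, which stands apart at 292534 gene counts, edgeR counted 0 at 2 hr and 0 for the mean, and without control replicate 3 it counted 6 and 6, beside 13.4% and 16.1% of all genes. At 1 hr it counted 0 without 1 hr replicate 2 and 7 without 1 hr replicate 1 (8.37%).

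ND-SGDH, a membrane subunit of complex I, had the lowest log2 fold change in Tau-KO females at each time. At 2 hr it stood at 252, 329 and 363 CPM in injured brains, against 407, 843 and 436 CPM in controls (log2 fold change -0.83 ± 0.27, unadjusted p = 0.00437, adjusted p = 0.720, edgeR). All injured libraries lay below all controls, and the control at 843 CPM was the library that stands apart. SdhB at 2 hr stood at 152, 78.7 and 52.2 CPM in injured brains, against 36.7, 6.82 and 51.7 CPM in controls (1.49 ± 0.71, unadjusted p = 0.0448, adjusted p = 0.720, edgeR); the lowest injured library was above the highest control by under 1 CPM. ND-MLRQ at 1 hr stood at 285, 570 and 322 CPM in injured brains, against 271, 194 and 252 CPM in controls (0.74 ± 0.35, unadjusted p = 0.0455, adjusted p = 0.789, edgeR). Its injured libraries lay above the controls, and the one at 570 CPM stands apart.

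SdhA in the Tau-KO females stood at 48.01, 0 and 32.3 CPM in controls, 23.97, 135 and 19.9 at 1 hr, 81.4, 44.1 and 50.1 at 2 hr and 43.4, 103 and 31.3 at 4 hr. Its mean log2 fold change over the times was 1.13 ± 0.65 (adjusted p = 0.616, edgeR), and the control at 0 is again replicate 2, where SdhB was at 6.82 CPM. In Tau-KO males SdhA stood at 57.6, 47.7 and 69.2 CPM in controls, 26.0, 56.5 and 26.0 at 1 hr, 56.4, 30.7 and 14.2 at 2 hr and 45.8, 21.2 and 10.5 at 4 hr. Its log2 fold changes there were -0.67, -0.85 and -1.32 in that order (adjusted p = 0.349 at 4 hr, edgeR). At 4 hr all its injured libraries lay below all controls.

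**Figure D4:**
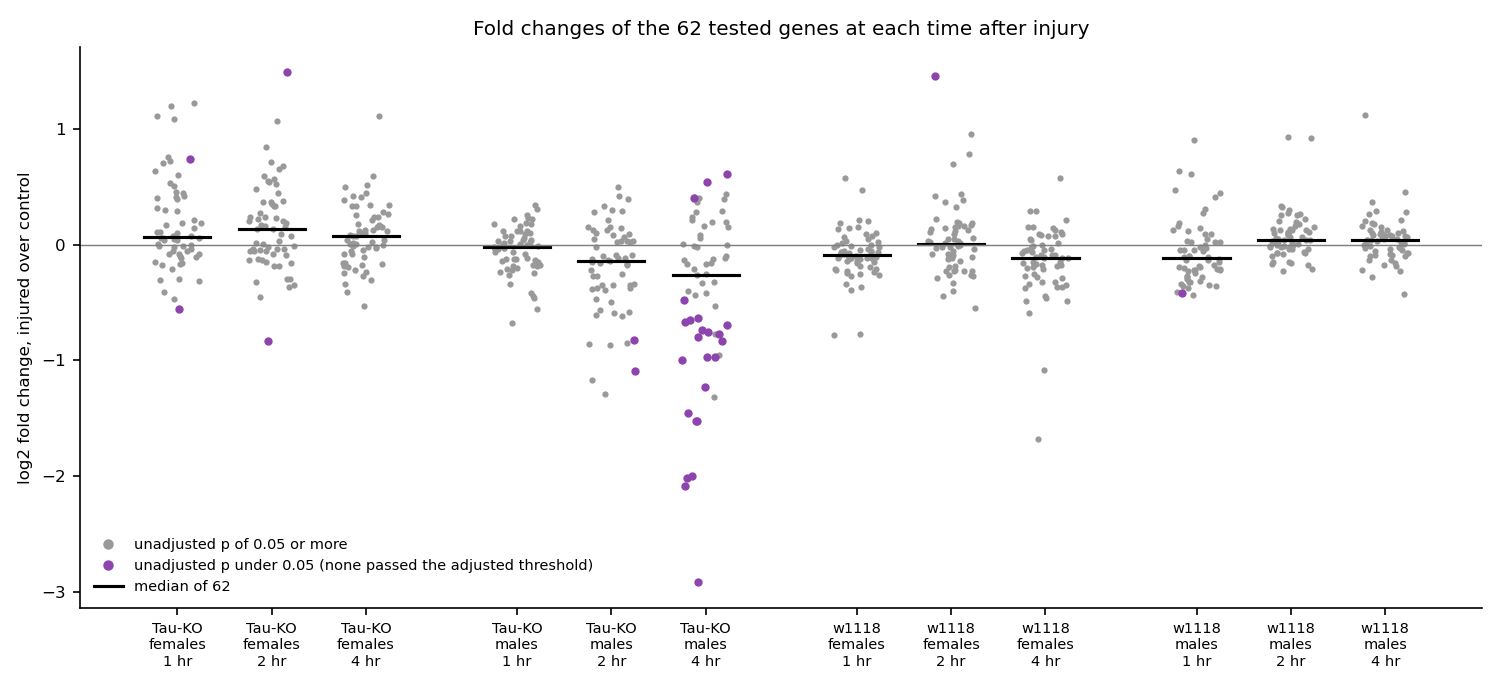
log2 fold change, injured over control, of each of the 62 tested genes at 1, 2 and 4 hr in females and males labelled Tau-KO and w1118, with medians as lines and genes with an unadjusted edgeR p under 0.05 in purple. Tau-KO males at 4 hr have 24 purple points (38.7%, beside 23.3% of all genes). Every other column has at most 2 (beside 0.749 to 7.08% of all genes), and no subunit gene passed the adjusted threshold.

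Tau-KO males at 4 hr held the widest spread. The median log2 fold change was -0.26, against -0.02 over all genes, and 36 of the 62 genes lay within 0.5 of 0. At an unadjusted p of 0.05 edgeR counted 3 subunit genes as higher and 21 as lower (38.7% of 62 in all), beside 9.27% and 14% of all genes and 23.3% in both directions. By complex, 1 was higher and 12 lower of 32 in complex I, 0 and 1 of 4 in II, 0 and 3 of 7 in III, 2 and 1 of 7 in IV, and 0 and 4 of 12 in V. The median log2 fold changes were -0.30, -1.13, -0.52, 0.01 and -0.29 in that order. DESeq2 counted 27 at an unadjusted p of 0.05 and 6 at an adjusted p of 0.05 (3.09% of 4820 genes): ATPsyndelta, ND-15, ND-42, ND-51, ND-ACP and SdhB, all lower.

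ATPsyndelta, part of the central stalk of ATP synthase, had the smallest p. It stood at 333.8, 204 and 348 CPM in injured brains, against 442, 532 and 686 CPM in controls (-0.97 ± 0.24, unadjusted p = 0.000392, adjusted p = 0.0715, edgeR), and all injured libraries lay below all controls. ND-42, an accessory subunit of complex I, stood at 98.2, 77.0 and 109 CPM in injured brains, against 154, 257 and 343 CPM in controls (-1.53 ± 0.42, adjusted p = 0.0879), also without overlap. For ND-51, the core subunit that takes electrons from NADH, the groups overlap, with 190, 66.4 and 183 CPM in injured brains against 76.9, 785 and 696 CPM in controls (-2.0 ± 0.59, adjusted p = 0.0903). In each of these genes the control of 39517 counts was the lowest control.

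The same held for ND-15, an accessory subunit of complex I, which stood at 65.5, 47.8 and 91.4 CPM in injured brains, against 19.2, 306 and 420 CPM in controls (-2.08 ± 0.65, adjusted p = 0.0967, edgeR). SdhB stood at 13.1, 2.65 and 17.6 CPM in injured brains, against 0, 60.9 and 126 CPM in controls (-2.92 ± 0.90, adjusted p = 0.0967), the furthest from 0 of the 62. In ND-15 and SdhB the control of 39517 counts lay below every injured library, and the other controls lay above all of them. ND-ACP, the acyl carrier protein of complex I, had a log2 fold change of -1.46 ± 0.43 (adjusted p = 0.0903, edgeR), and of the remaining 15 that were lower at an unadjusted p of 0.05 the log2 fold changes ran over -2.02 (ND-18) to -0.48 (ATPsyngamma).

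The 3 that were higher were ND-B14.7, COX4 and COX5A. ND-B14.7, a membrane subunit of complex I, stood at 1610, 1815 and 1649 CPM in injured brains, against 1153, 1279 and 979 CPM in controls (0.54 ± 0.20, unadjusted p = 0.0107, adjusted p = 0.121, edgeR). COX5A stood at 5263, 4456 and 5832 CPM in injured brains, against 4035, 3263 and 2634 CPM in controls (0.62 ± 0.26, unadjusted p = 0.0257, adjusted p = 0.164, edgeR). COX4 stood at 4543, 5489 and 5059 CPM in injured brains, against 2978, 4438 and 3680 CPM in controls (0.41 ± 0.16, unadjusted p = 0.0142, adjusted p = 0.130, edgeR). In all 3 the groups do not overlap. Of the 62, 6 lay wholly above and 5 wholly below the controls, beside 8.81% and 5.2% of all genes.

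**Figure D5:**
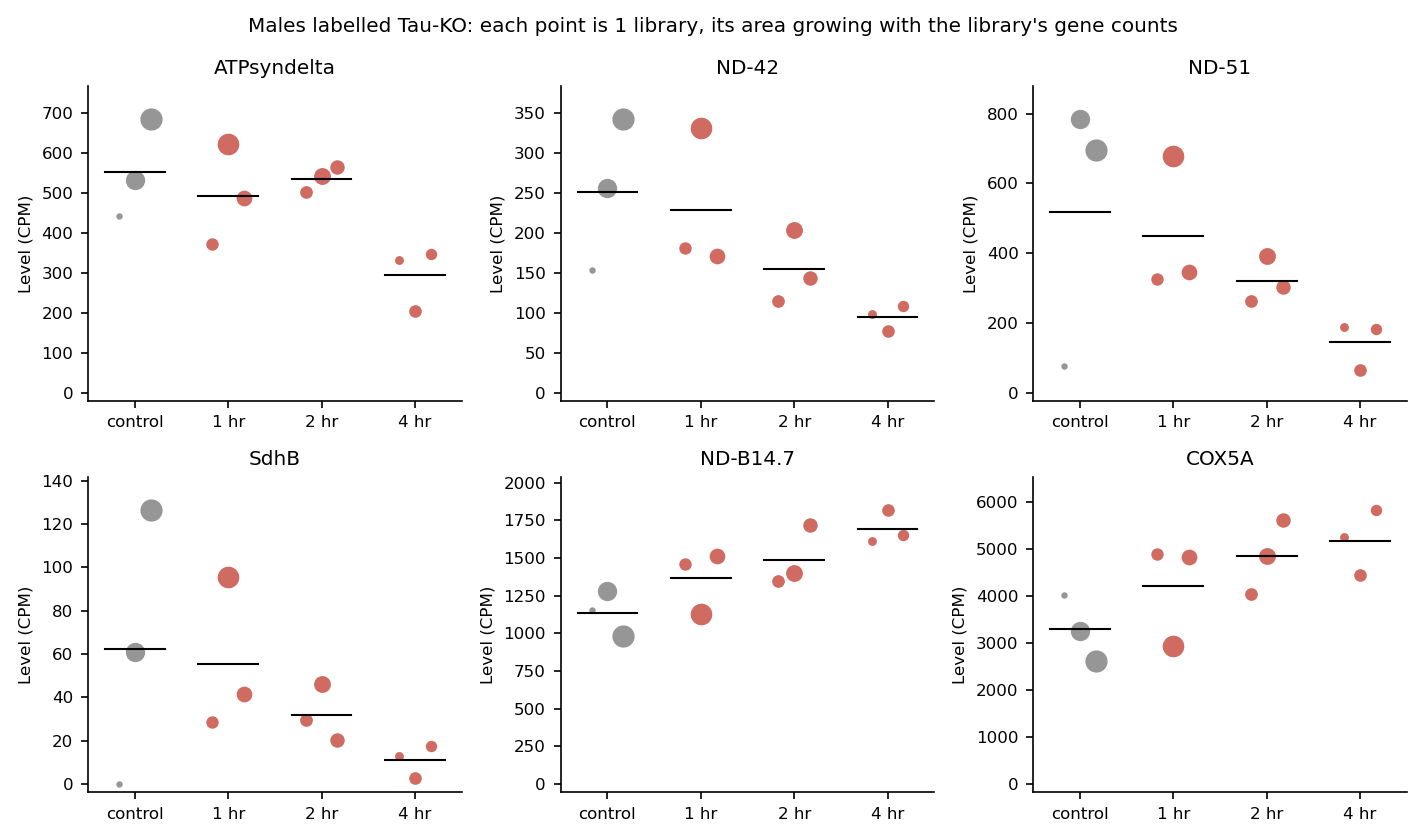
Level in CPM of 6 genes in each library of males labelled Tau-KO, controls in grey and the 3 injured groups in red, with the mean of each group as a line and the area of a point growing with the gene counts of its library. ATPsyndelta and ND-42 lie lower and ND-B14.7 and COX5A higher at 4 hr than in every control, while the small grey point, the control of 39517 counts, lies within or below the 4 hr libraries for ND-51 and SdhB.

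These groups differed in depth and in kind of library. The 4 hr libraries held 134970, 340255 and 265717 gene counts, against 39517, 891279 and 1198452 in controls, and the deeper 2 controls and 1 of the 4 hr libraries stand apart. Without the control of 39517 counts, edgeR called 17 of the 62 genes at an adjusted p of 0.05, all lower, beside 10.9% of 5302 genes. They were ATPsynG, ATPsyndelta, COX5B, Cyt-c1, ND-15, ND-20, ND-42, ND-49, ND-51, ND-ACP, ND-AGGG, ND-B22, ND-MLRQ, SdhB, UQCR-6.4, UQCR-C1 and UQCR-Q. With no filter on low counts 9 were called, all lower (3.64% of 10242 genes). In the other direction, with log2 depth as a covariate edgeR called none and counted 11 of 62 at an unadjusted p of 0.05 (4 higher and 7 lower), beside 11.5% of all genes, and without control replicate 3 it counted 8, beside 12.8%. With the covariate the log2 fold change of SdhB was -0.91 ± 0.78 and that of ND-15 -0.67 ± 0.49. For ATPsyndelta it was -0.85 ± 0.22 and for COX5A 0.50 ± 0.20. The covariate does not cover whether a library stands apart. COX5A was under 3500 CPM in 14 of the 16 libraries that stand apart and in none of the other 32. The 4 hr library that stands apart was not among the 14. ND-51, ND-15, SdhB, ND-42 and ND-AGGG are among the genes that were higher in deeper libraries over all 48, and COX5A among those that were lower. Depth, kind of library and injury cannot be told apart in these 6 libraries. Marker genes of neurons had a median log2 fold change of 0.44 in the same comparison, with 4 of 10 higher and 0 lower at an unadjusted p of 0.05, and glial ones -0.68, with 1 higher and 1 lower of 8. Their part in the result was not tested.

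At 1 and 2 hr the Tau-KO males had medians of -0.02 and -0.14. By edgeR 0 genes had an unadjusted p under 0.05 at 1 hr (3.97% of all genes; DESeq2 0) and 2 at 2 hr (6.94%; DESeq2 4), ND-49 at -1.09 and ND-42 at -0.82. Without the control of 39517 counts the number at 2 hr was 15, beside 14.5% of all genes, and without 2 hr replicate 3 it was 0. For the mean over the times 3 were higher and 9 lower, beside 5.66% and 8.69% of all genes (14.4% in both), and DESeq2 counted 10; the number was 24 without that control, beside 23.8% of all genes, and 1 without control replicate 3, beside 7.59%. ND-42 had the smallest p for the mean (-0.86 ± 0.31, unadjusted p = 0.0112, adjusted p = 0.25, edgeR).

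The difference of the injury responses of females and males, averaged over the times, was tested as an interaction. No subunit gene passed an adjusted p of 0.05 in Tau-KO (0.0399% of all genes) or in w1118 (0%). At an unadjusted p of 0.05 edgeR counted 15 genes with a higher and 3 with a lower response in Tau-KO females than in Tau-KO males, beside 11.1% and 10.5% of all genes (21.6% in both), and DESeq2 counted 19. The largest was SdhB, with a difference of 2.52 ± 0.85 in log2 fold change (unadjusted p = 0.00670, adjusted p = 0.142, edgeR). Without the male control of 39517 counts 9 genes were called at an adjusted p of 0.05 (6.66% of 5302 genes), all higher in females: Cyt-c1, ND-15, ND-51, ND-AGGG, ND-B22, ND-MLRQ, SdhB, UQCR-6.4 and UQCR-C1. Without male control replicate 3 the unadjusted count was 3, beside 11.9% of all genes. In w1118 neither edgeR nor DESeq2 counted a gene at an unadjusted p of 0.05, beside 1.77% of all genes by edgeR.

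Females and males themselves, averaged over the 4 groups of each sex, differed by a log2 value within 0.5 in 61 of the 62 genes in Tau-KO and in all 62 in w1118. No gene passed an adjusted p of 0.05 in either strain (0% of all genes in each). Since no gene of any kind was called between the sexes, this does not show that the subunit genes are alike in them. The yolk protein gene Yp1, 1 of the fat body markers, stood at 335 CPM or more in every library, those of males included. The unadjusted edgeR p was under 0.05 for ND-B17 in Tau-KO, higher in females (0.47, unadjusted p = 0.0187), beside 2.57% of all genes, and none in w1118 (1.57%); DESeq2 counted 1 and 0. In Tau-KO the count was 3 without male 1 hr replicate 2 (3.62% of all genes) and 0 without female 2 hr replicate 1. The median log2 difference, females over males, was 0.08 in Tau-KO and 0.02 in w1118.

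The strains were compared in 1 fit of all 48 libraries. No subunit gene differed at an adjusted p of 0.05 between Tau-KO and w1118 in control females, injured females, control males or injured males, and 0% of all 5821 genes did in each. In control females edgeR counted 1 gene as higher and 2 as lower in Tau-KO at an unadjusted p of 0.05 (5.69% of all genes; DESeq2 4), and the count was 0 without w1118 control replicate 1 or Tau-KO control replicate 2 and 11 without Tau-KO control replicate 3 (10.8%). ND-MWFE, a small subunit of complex I, stood at 330, 331 and 256 CPM in Tau-KO, against 162, 200 and 245 CPM in w1118 (0.59 ± 0.26, unadjusted p = 0.0303, adjusted p = 0.855, edgeR). ND-B22 stood at 404, 246 and 505 CPM in Tau-KO, against 857, 548 and 575 CPM in w1118 (-0.77 ± 0.35, unadjusted p = 0.0339, adjusted p = 0.855, edgeR). Neither pair of groups overlaps, and the other gene was ND-75, at -0.56.

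In injured females no gene had an unadjusted p under 0.05 (2.01% of all genes; DESeq2 0), with 2 without w1118 2 hr replicate 1 (7.09%), and all 62 lay within 0.5 of 0, with a median of 0.06. Control males likewise gave none (3.35%; DESeq2 0), with 2 without the Tau-KO control of 39517 counts (5.04%). In injured males 3 were higher and 8 lower in Tau-KO, beside 1.7% and 8.45% of all genes (10.2% in both; DESeq2 14). The smallest p was that of SdhB, at 32.8 ± 27.2 CPM in Tau-KO and 71.9 ± 35.6 CPM in w1118 (SD, n = 9 each; -1.45 ± 0.50, unadjusted p = 0.00615, adjusted p = 0.398, edgeR). Without w1118 male 1 hr replicate 2, the deepest library, the count was 2 (3.06% of all genes), and without Tau-KO male 1 hr replicate 2 it was 17 (13.2%). For the interaction of strain and injury the unadjusted p was under 0.05 in 1 gene with a higher and 1 with a lower response in Tau-KO females (4.29% of all genes; DESeq2 2), in 2 with a lower response in Tau-KO males (7.4%; DESeq2 3), and none passed an adjusted p of 0.05 (0% of all genes in each). The interaction in males had 12 without the Tau-KO control of 39517 counts (12.5% of all genes), and that in females had 7 without Tau-KO control replicate 3 (8.47%).

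The other nuclear genes of the pathway gave no call at an adjusted p of 0.05 in any of the 26 comparisons by edgeR. Complex members that the symbols above leave out (such as levy), listed together with the cytochrome c gene Cyt-c-p, summed to 4727 to 7202 CPM. In Tau-KO males at 4 hr 1 of the 6 tested was higher at an unadjusted p of 0.05, Cyt-c-p, the cytochrome c of somatic cells, at 2.44, and 2 were lower, levy at -0.46 and sun, the epsilon subunit of ATP synthase, at -1.85. Of 12 tested assembly factors 1 was higher and 2 lower, of 16 genes of the tricarboxylic acid cycle and pyruvate dehydrogenase 3 and 2, and of 3 carrier genes 0 and 1, sesB, the adenine nucleotide carrier, at -1.45. None of 4 tested regulators of mitochondrial genes had an unadjusted p under 0.05. Of all genes 9.27% were higher and 14% lower in that comparison (23.3% in both). These small counts are therefore not read as results on these lists. The 13 subunits encoded in mitochondrial DNA were not analysed here.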

How the data were processed

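RNA was extracted from single brains and made into QuantSeq 3′ libraries from 15 ng of RNA, read at 50 bases. Per the labels, the authors used CASAVA 1.8.2 and STAR 2.4 with the dm3 build, and edgeR 3.22.3. They counted reads per gene with HTSeq, and the deposited table holds these raw counts, with 5 rows that name no gene (23.1 to 52.8% of a library's reads), which were left out of library sizes. All 48 columns matched a sample. The authors' own comparison tables (fold changes and p-values) were not used.

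Counts were tested with edgeR 4.0.16 in R 4.3.3 (filterByExpr, TMM, glmQLFit, glmQLFTest), with a mean per group, in 24 libraries per strain or in all 48 for the strain comparisons, and p-values were adjusted by Benjamini-Hochberg over all genes tested. The scripts were tested on simulated data. Levels are CPM on the TMM-scaled library sizes. Correlations with depth used scipy 1.17.1 and log2(CPM + 1) for Pearson's r. Gene ends were looked up in BDGP6. No 2 libraries agreed within sampling noise (smallest chi-square per degree of freedom 1.36). The 32 libraries that do not stand apart came close to it, with nearest values of 1.36 to 2.30. Strain and sex did not separate them in this measure. For example, w1118 male 2 hr replicate 3 and Tau-KO female 1 hr replicate 3 had the same nearest value, 1.39. The reason was not tested. The labels do not say that the 3 replicates of a group came from separate cohorts, so p-values measure the spread between these libraries. That spread pools the 32 libraries close to sampling noise with the 16 that stand apart. How far it is a spread between brains was not tested, and this limit holds for the injury, sex and strain comparisons.

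Replicate numbers paired the libraries (correlations of deviations over 0.1 in all 3 pairs, over 2000 genes) only in w1118 males at 1 hr (0.44, 0.67 and 0.21), so no block was used. Named genes were the highest and lowest of each complex, SdhA, SdhB, and the smallest p in each direction and comparison (in full where groups did not overlap); ND-51, ND-15, COX5A and others named beside these were chosen after their values were seen. The genes and lists were chosen with earlier results of these data known. Alternatives were DESeq2 1.42.0 (size factors and Wald test), no filter, the replicate block, leaving out each library, the 2 under 100000 counts or the 16 that stand apart, and, added after seeing the data, log2 depth as a covariate and library totals. Counting intervals and limits cover counting error only.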

Additional observations from a re-analysis of the deposited data

How the results depend on the processing

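At an adjusted p of 0.05, Tau-KO males at 4 hr had 9 called with no filter (3.64% of all genes), 6 with DESeq2 (3.09%) and 17 without the libraries under 100000 counts (10.9%), and their mean over the times had 2 with no filter (1.16%). The Tau-KO female minus male response had 4 with no filter (330 of 10242 genes) and 9 without the libraries under 100000 counts (6.66%), injured males of the strains had 3 with no filter, of 79 genes called in all, and Tau-KO females against males had 5 without the libraries that stand apart, of 58 called in all. At an unadjusted p of 0.05 and without the libraries under 100000 counts, the Tau-KO male mean had 24 (23.8% of all genes), the female minus male response 28 (28.3%) and injured males of the strains 19 (12.5%). Library totals gave the Tau-KO male mean 6 (12.8%), the depth covariate gave Tau-KO males at 4 hr 11 (11.5%), and leaving out the libraries that stand apart gave them 8 (5.63%) and injured males of the strains 2 (7.42%).

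That last setting leaves 1 Tau-KO male control, of 39517 counts, assumed to vary like the other groups. With it the median log2 fold change was 0.42, 0.43 and 0.33 in Tau-KO males at 1, 2 and 4 hr, 0.38 for their mean, -0.076 in Tau-KO females at 1 hr, -0.40 for the Tau-KO female minus male response, -0.48 for the strains in control males and 0.47 for the strain interaction in males. With the depth covariate it was -0.071 in w1118 females and 0.12 in w1118 males at 2 hr. With library totals it was -0.00086 and 0.0033 in w1118 females at 1 and 4 hr, -0.065 in w1118 males at 4 hr, 0.078 for the w1118 female minus male response, 0.048 for the strains in control females and 0.0059 for the strain interaction in females. The cause of these shifts was not tested.

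Leaving out 1 library at a time gave 0 to 17 genes called in Tau-KO males at 4 hr and 0 to 9 in the Tau-KO female minus male response. Both were highest without Tau-KO male control replicate 1, beside 10.9% and 6.66% of all genes. The unadjusted counts ran over 8 to 32, 1 to 24, 3 to 28 and 2 to 17 in Tau-KO males at 4 hr, their mean, the female minus male response and injured males of the strains. Without that control the counts of 32, 24 and 28 stood beside 30.2%, 23.8% and 28.3% of all genes. The shares for the other ends are given above. All 312 medians without 1 library moved by less than the replicate spread, the pooled SD of the library medians within groups. That spread holds the left-out library too, so in comparisons of 2 groups of 3 it could hardly be passed. It does not show that the medians are stable. In w1118 females at 2 hr the median went from 0.007 to -0.039 without 2 hr replicate 3. With the replicate block no subunit gene was called in any comparison. The unadjusted count was then 27 in Tau-KO males at 4 hr and 1 in w1118 males at 1 hr, the comparison whose numbers pair. Without the block 23.3% and 2.57% of all genes passed that limit there. The shares with the block are not given here, so these 2 counts are not read as results on the subunit genes. Depth limits SdhA, SdhB and ND-18 most, each with no count in 1 or 2 libraries.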
